A study of Mus musculus with 8 samples.

Results

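Interferon kappa (Ifnk) and 5 interferon-response genes, Ifi202b, Iigp1, Isg15, Irf1 and Oas1a, were followed in skin from mouse embryos without epidermal corneodesmosin. They are 6 of the 5080 genes that the authors' deposited table names, and each was read by 1 of the 33793 probe sets of the array. The table lists probe sets with a Benjamini-Hochberg adjusted p under 0.05 and a log2 change of more than 0.5 in size between genotypes, so the 6 genes were chosen on the same difference between genotypes that is described here, and their differences are given without a test. KO embryos carried the KRT14-Cre(tg/0) transgene and 2 floxed Cdsn alleles (KRT14-Cre(tg/0)/Cdsnfl/fl), and WT embryos carried the same transgene with unfloxed alleles (KRT14-Cre(tg/0)/Cdsnwt/wt). All were on a background labelled C57B/6J, were taken by caesarean at stage E18.5 because the KO is lethal at birth, and gave dorsal skin that was tape-stripped and kept on culture medium at 37°C for 4 h. There were 4 KO and 4 WT embryos with 1 array each. The keratin 14 promoter drives Cre in basal keratinocytes and their descendants, whereas RNA came from the whole skin. A gene's level in such bulk RNA cannot tell fewer cells of a type from less RNA per cell.

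Interferons are secreted proteins that bind cell-surface receptors and, through JAK kinases and STAT factors, switch on a shared set of antiviral genes. Ifnk is the type I interferon known for its expression in keratinocytes. Type I interferons act at DNA elements called ISRE, and interferon gamma acts at elements called GAS. Isg15 (a ubiquitin-like protein) and Oas1a (an oligoadenylate synthetase that senses double-stranded RNA) are antiviral effectors. Irf1 is a transcription factor of the response, Ifi202b a DNA-binding protein of the p200 family, and Iigp1 a GTPase that attacks the vacuoles of intracellular parasites.

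Promoter stretches are shown for the genes with an entry among the RefSeq promoter windows (GRCm38.p6), to set the direction of each gene beside the elements in front of it. Of the 6 genes, 5 had an entry, and each was searched over the 250 bases before the annotated start for GAAANNGAAA, the core of the ISRE, and TTCNNNGAA, the core of the GAS, on both strands. Capitals mark the matches. The Isg15 stretch (chr4:156200865-156200906, minus strand) holds 3 overlapping ISRE cores, the first of which begins 78 bases before the start. The Oas1a stretch (chr5:120907526-120907633, minus strand) holds a GAS core 98 bases and 2 overlapping ISRE cores 20 and 14 bases before the start. The Irf1 stretch (chr11:53769914-53769942, plus strand) and the Ifi202b stretch (chr1:173982974-173983002, minus strand) hold 1 GAS core each, and the last 90 bases before the Ifnk start (chr4:35151965-35152054, plus strand) belong to a window with no match.
Isg15: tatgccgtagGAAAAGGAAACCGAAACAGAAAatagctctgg
Oas1a: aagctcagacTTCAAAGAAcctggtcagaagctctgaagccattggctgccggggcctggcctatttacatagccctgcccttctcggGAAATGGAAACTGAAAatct
Irf1: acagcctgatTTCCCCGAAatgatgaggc
Ifi202b: ctgtcatgatTTCTCAGAAtaactactga
Ifnk: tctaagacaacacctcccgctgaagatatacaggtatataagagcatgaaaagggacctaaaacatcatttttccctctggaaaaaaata

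The ISRE core was found in 2 of the 5 genes, Isg15 and Oas1a, and in 3.46% of all 27025 genes with a window of that length (2.98% of the 32851 windows, since a gene can have several). The GAS core was found in 3 of the 5, Irf1, Oas1a and Ifi202b, and in 8.13% of all genes (7.02% of windows). A second annotated Irf1 start had neither. Isg15 was higher in KO skin and Oas1a was lower, so the 2 genes with the ISRE core were on opposite sides. A match is a run of letters and does not show that a factor was bound. The genes were picked as interferon genes, so these shares describe that choice and not the difference between genotypes.

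The targeted gene gave the check of the labels. Cdsn had log2 intensities of 8.09, 8.51, 7.995 and 8.91 in KO skin, against 11.76, 11.82, 11.69 and 12.10 in WT skin, and was at 0.0906 times its WT level (limma, Benjamini-Hochberg adjusted p = 0.000125). KO arrays were slightly brighter, with medians of 4.81 to 4.88 against 4.70 to 4.80 on WT arrays. Over all probe sets 5138 were higher in KO skin (15.2%) and 2056 were lower (6.08%) at an adjusted p under 0.05 (limma), and after each array was centred on its median these counts were 2965 (8.77%) and 3075 (9.10%). Their median difference was 0.09 on the deposited scale and −0.02 on the centred one. Of the 8 keratinocyte markers 2 were named in the authors' deposited table, the filaggrin gene Flg and the loricrin gene Lor, and both read above 12 in both genotypes. Both fell in KO skin, Flg by 0.57 ± 0.12 and Lor by 0.53 ± 0.14 on the log2 scale (SE; limma adjusted p = 0.00839 and 0.0241), with no overlap between genotypes, and both passed after centring.

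In KO skin, 4 of the 6 genes were higher and 2 were lower. Ifnk and Ifi202b had the largest differences, about 4-fold, while Iigp1 and Isg15 differed by about 2-fold, and the probe set named Irf1 and Oas1a were lower. In all 6 the 4 KO values lay apart from the 4 WT values, as they did in 25.0% of all probe sets. All 6 lay past the authors' criteria, as the choice required, where 16.2% of probe sets did (11.8% higher and 4.40% lower) and 21.3% passed on the adjusted p alone.

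Ifnk, the only ligand among the 6 genes, is on chromosome 4 and was read by 18 probes. Its log2 intensities were 6.16, 3.99, 3.91 and 5.12 in KO skin, against 2.83, 3.33, 2.12 and 2.85 in WT skin. KO replicate 1 was the highest by more than 1 log2 unit, KO replicates 2 and 3 were close together at the low end, and the lowest KO value was 0.58 above the highest WT value. The means were 4.79 ± 1.07 in KO and 2.78 ± 0.50 in WT skin (SD, n = 4 each), a 4.04-fold difference (log2 2.01 ± 0.45, SE). The KO spread of Ifnk was the widest among the 6 genes, with a range of 2.25 against 1.22 in WT skin. Without KO replicate 1 the difference was 1.56. The WT mean of Ifnk lay well below the median over all probe sets, 4.76. KO replicates 2 and 3 lay below that median too. No detection value was used here, so whether the WT level or these 2 KO values were above background is not known.

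Ifi202b, on chromosome 1, was read by 24 probes. This gene is known to differ in expression between inbred mouse strains. Its log2 intensities were 11.79, 11.75, 10.75 and 12.19 in KO skin, against 9.66, 9.64, 8.27 and 10.41 in WT skin. Its mean over all arrays ranked at 98.4% among the probe sets. Whether so high a level is usual for the labelled background was not tested. Whether the embryos, or the genotypes, differed in strain at this gene was not tested either. Replicate 3 was low and replicate 4 high in each genotype, although the labels do not say that equal numbers belong together. The groups were separated by 0.34. The means were 11.62 ± 0.62 in KO and 9.50 ± 0.89 in WT skin (SD, n = 4 each), a 4.35-fold difference (log2 2.12 ± 0.42, SE). WT values spanned 2.14 log2 units, as much as the difference itself, and without WT replicate 3 the difference was 1.71. The symbol Ifi202b also covers the older name Ifi202a in RefSeq, so the value may stand for close copies.

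Iigp1, on chromosome 18, was read by 15 probes. Its log2 intensities were 6.79, 6.72, 5.87 and 6.03 in KO skin, against 5.62, 5.52, 5.07 and 5.05 in WT skin. In each genotype 2 arrays lay above the other 2, and the groups were separated by 0.25. The means were 6.35 ± 0.47 in KO and 5.31 ± 0.30 in WT skin (SD, n = 4 each), a 2.05-fold difference (log2 1.04 ± 0.23, SE).

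Isg15, on chromosome 4, was read by 18 probes. Its log2 intensities were 5.51, 5.87, 5.90 and 6.20 in KO skin, against 4.96, 5.05, 4.28 and 5.06 in WT skin. WT replicate 3 stood below the other WT arrays, which lay within 0.1 of each other, and the groups were separated by 0.45. The means were 5.87 ± 0.28 in KO and 4.84 ± 0.38 in WT skin (SD, n = 4 each), a 2.05-fold difference (log2 1.03 ± 0.20, SE). KO replicate 1, the highest KO array for Ifnk, was the lowest KO array for Isg15.

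The probe set named Irf1 needs its strand stated before its values. The authors' deposited table places it on the minus strand of chromosome 11 under the transcript ENSMUST00000170390, whereas RefSeq places the Irf1 gene on the plus strand. Such a mismatch was found for 12 of 2824 named genes that have 1 chromosome and 1 strand in both sources (0.425%), and for no other of the 5 genes of the group that could be compared. Whether the probe set reads Irf1 mRNA or an RNA of the opposite strand was not tested, and its values are given for the probe set and not for the Irf1 transcription factor. Its log2 intensities were 3.13, 3.25, 2.99 and 3.34 in KO skin, against 3.93, 4.13, 4.11 and 4.14 in WT skin. Both groups were tight and lay 0.59 apart. The means were 3.18 ± 0.15 in KO and 4.08 ± 0.10 in WT skin (SD, n = 4 each), and KO was at 0.537 times WT (log2 −0.90 ± 0.12, SE). Both means lay below the median over all probe sets.

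Oas1a, on chromosome 5, was read by 11 probes, the fewest among the 6 genes. Its log2 intensities were 3.05, 3.36, 3.61 and 3.42 in KO skin, against 3.66, 4.11, 3.98 and 4.06 in WT skin. The groups nearly met, since KO replicate 3 and WT replicate 1 were 0.051 apart. The means were 3.36 ± 0.23 in KO and 3.95 ± 0.20 in WT skin (SD, n = 4 each), and KO was at 0.663 times WT (log2 −0.59 ± 0.15, SE). Oas1a was the gene nearest to the authors' size criterion of 0.5, and without KO replicate 1 its difference was −0.49, inside that criterion. Its level, too, was below the median over all probe sets in both genotypes. Genes just outside the criterion carry no name in the files used here.

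**Figure D1:**
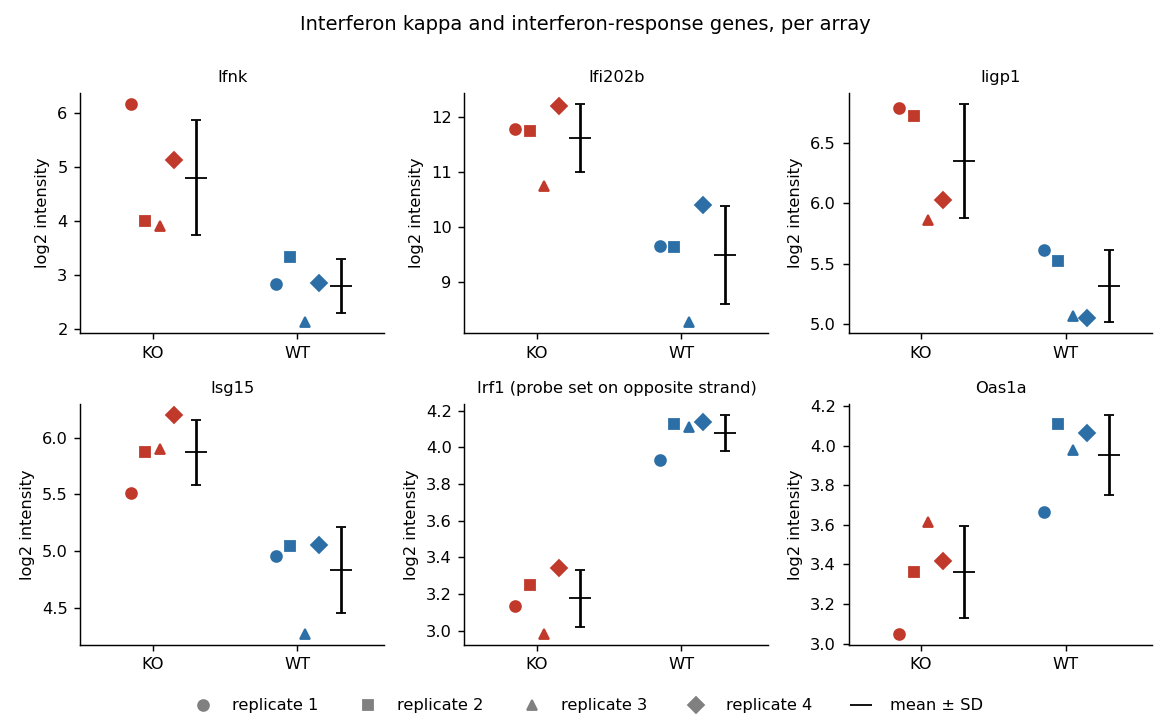
Log2 intensity of each of the 6 genes on the 4 KO arrays (red, left) and the 4 WT arrays (blue, right), with a marker shape for each replicate and bars for the mean ± SD; each panel has its own axis. The 4 genes that were higher in KO skin show wide and uneven KO or WT spreads, as for Ifnk with KO values of 3.91 to 6.16, while the probe sets named Irf1 and Oas1a are lower in KO skin and lie between 2.99 and 4.14.

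The genes did not share 1 order of arrays within a genotype. KO replicate 3 was the lowest KO array for 4 of the 6 genes, Ifnk, Irf1, Ifi202b and Iigp1, and the highest for Oas1a. KO replicate 1 was the highest for Ifnk and Iigp1 and the lowest for Isg15 and Oas1a. Among WT arrays, replicate 3 was the lowest for Ifnk, Isg15 and Ifi202b, with deviations from the WT mean of −0.67, −0.56 and −1.22. WT replicate 4 was the highest for Irf1, Isg15 and Ifi202b. With 4 arrays a genotype, no correlation between the genes was computed.

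**Figure D2:**
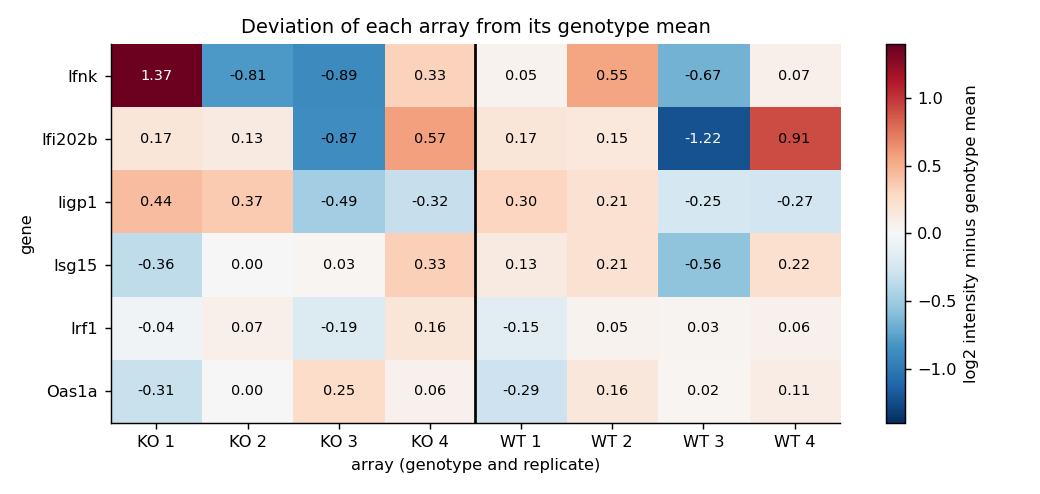
Log2 intensity of each gene (rows) on each array (columns, KO left and WT right of the black line) minus the mean of its genotype, in colour and as a number. Ifnk in KO replicate 1 (1.37) and Ifi202b in WT replicate 3 (−1.22) are the largest deviations, and the rows differ in which arrays are high or low.

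The genes with the most similar profiles were found by the root-mean-square difference over the 8 arrays between log2 values taken relative to each gene's own mean, among 5074 other named genes. Both groups of arrays enter this measure, so a close gene has a similar difference between genotypes by construction. Nearest to Ifnk were Olr1, a receptor for oxidised lipoprotein (0.407), the simple-epithelium keratin gene Krt18 (0.414) and the cytokine gene Tslp (0.414). Nearest to Ifi202b were the epithelial surface protein gene Plet1 (0.282), the AP-1 subunit gene Fosl1 (0.343) and the cytokine gene Il6 (0.357). No other gene of the interferon lists was among the 3 nearest of any of the 6. For Isg15 these were C430014B12Rik (0.153), Gm22344 (0.162) and Gm24957 (0.166). For Iigp1 they were BC031361 (0.163), Gm22093 (0.185) and Gm25320 (0.204). The probe set named Irf1 was nearest to Gm12701 (0.0715), the homeobox gene Rhox7 (0.0882) and C230091D08Rik (0.0887), and Oas1a to 0610040B10Rik (0.0601), Pick1 (0.0786) and the ganglioside activator gene Gm2a (0.0878). Within the group, Irf1 and Oas1a were the closest pair (0.252), followed by Iigp1 and Isg15 (0.478) and by Ifi202b and Ifnk (0.671).

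The rest of the interferon pathway was taken from 10 lists ordered by role, 157 genes besides the 6. Of these, 44 were named in the authors' deposited table, 42 higher and 2 lower in KO skin, which is 28.0% of the lists beside the 16.2% of all probe sets that met the same criteria. A list gene that was not named had no probe set under its name past these criteria, and its values could not be followed. The probe sets behind the second share include many RNAs other than known protein genes. All 44 passed at an adjusted p under 0.05 (limma), as their naming required. Their median log2 difference was 0.66, beside 0.62 over all 5080 named genes, and 74.0% of named genes were higher. After median centring 27 of the 42 and both of the 2 passed. With low probe sets left out 30 of the 42 passed. The others were removed, since their means over the 8 arrays lay below the median over all probe sets, 4.76. Gbp8 (2.43), Pydc4 (2.88) and Pyhin1 (3.11) had the lowest means among the 42, and whether such levels were above background is not known. Leaving out 1 array at a time ended the call of 17 of the 44 genes, 14 of which also did not pass after centring, while the other 3 were Ifng, Gbp11 and Psmb9.

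Among ligands, 4 of 20 were named (20%, beside 16.2% of all probe sets that met the same criteria). The interferon alpha genes Ifna9 (log2 0.66 ± 0.20, SE) and Ifna15 (0.55 ± 0.17) and the lambda gene Ifnl3 (0.55 ± 0.14) were higher as deposited, but none of these 3 passed after centring (limma adjusted p = 0.0754, 0.0916 and 0.0546). The interferon alpha genes are near-identical copies, and binding of their probes between copies was not measured. Ifna15 carries annotation class 3, which in Affymetrix's scheme stands for mixed probes, so its value may not be its own. Ifna9 carries class 1, for unique ones. Ifng, the interferon gamma gene, had log2 intensities of 3.23, 3.64, 3.50 and 3.36 in KO skin, against 3.99, 3.71, 4.30 and 3.77 in WT skin. It fell (−0.51 ± 0.15, SE; limma adjusted p = 0.0399), with no overlap between genotypes. The mean of Ifng over the 8 arrays, 3.69, lay below the median over all probe sets, 4.76, and whether it was above background is not known. The call was lost without KO replicate 1, 3 or 4 (limma adjusted p = 0.0982, 0.0605 and 0.0872), without WT replicate 1 or 3 (0.0804 and 0.0965) and in 3 further alternatives. Ifnb1 and Ifne were not named.

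Of 12 receptor and JAK-STAT genes 2 were named (16.7%, beside 16.2% of all probe sets). Jak2, the kinase of the interferon gamma receptor and of many cytokine receptors, had values of 9.86, 9.47, 8.70 and 9.96 in KO skin, against 8.26, 8.11, 7.87 and 8.75 in WT skin. It rose (1.25 ± 0.28, SE; limma adjusted p = 0.0112), although 1 KO value, that of replicate 3, lay under the highest WT value. Il10rb, the receptor chain shared by interferon lambda and interleukin-10 family cytokines, rose by 0.63 ± 0.11 (SE; limma adjusted p = 0.00476). The receptor genes of Ifnk itself, Ifnar1 and Ifnar2, and Stat2 and Irf9 were not named.

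Among 9 other interferon regulatory factors and their partners 3 rose (33.3%, beside 11.8% of all probe sets). After centring 2 of the 3 also passed. Of these 2, Irf7, the factor that amplifies type I interferon transcription, rose by 0.57 ± 0.13 (SE; limma adjusted p = 0.0126) and Irf4, known from lymphocytes and dendritic cells, by 0.92 ± 0.19 (adjusted p = 0.0088, limma). Of 8 negative regulators the 2 named (25%, beside 16.2% of all probe sets), Pias1 (0.56 ± 0.13) and Ptpn2 (0.54 ± 0.13), rose. Socs1, Socs3 and Usp18 were not named.

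Of 15 nucleic acid sensing genes 5 were named (33.3%, beside 16.2% of all probe sets). All 5 rose, as 74.0% of all named genes did. All 5 also passed after centring, where 8.77% of all probe sets were called higher. The endosomal DNA receptor gene Tlr9 had values of 5.67, 5.81, 5.62 and 5.36 in KO skin, against 4.43, 4.37, 4.60 and 4.61 in WT skin. Its rise was 1.11 ± 0.13 (SE; limma adjusted p = 0.000674), with the genotypes well apart. The endosomal RNA receptor gene Tlr7 rose by 0.74 ± 0.18, Mb21d1, which encodes the DNA sensor cGAS, by 0.73 ± 0.15, the kinase gene Tbk1 by 0.57 ± 0.12 and Zbp1, a sensor of Z-form nucleic acids, by 0.54 ± 0.11. The mean of Tlr7 over the 8 arrays, 3.69, lay below the median over all probe sets, 4.76.

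Of 42 antiviral effectors besides Isg15 and Oas1a, 8 were named (19.0%, beside 16.2% of all probe sets). All 8 rose as deposited, as 74.0% of all named genes did. After centring 3 passed, where 8.77% of all probe sets were called higher. These 3 were Rsad2, the viperin gene (0.99 ± 0.16, SE; limma adjusted p = 0.00303), Epsti1 (0.80 ± 0.12; adjusted p = 0.00219) and the membrane protein gene Ifitm3 (0.73 ± 0.16; adjusted p = 0.0117). Oas1b, a paralogue of Oas1a on the same chromosome, was on the other side from Oas1a (0.64 ± 0.20), with overlapping genotypes and an adjusted p of 0.0915 after centring (limma). Parp14 (0.62 ± 0.15), Samhd1 (0.58 ± 0.18), the RNA-activated kinase gene Eif2ak2 (0.53 ± 0.12) and Rtp4 (0.53 ± 0.16) likewise passed as deposited but not after centring. Ifit1, Ifit2, Ifit3, Mx1, Mx2 and Oas2, widely used readouts of type I interferon, were not named, so no probe set under these names met the authors' criteria.

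The p200 family of Ifi202b lies in a cluster on chromosome 1, and 5 of its 9 other listed genes were named. All 5 rose, and the 4 KO values of each lay above its WT values. Genotypes were fully apart, in either direction, for 38 of the 44 named list genes, and for 25.0% of the array's 33793 probe sets. Named genes had been selected on their difference between genotypes, so this separation does not set the family apart. Ifi203 had values of 5.45, 5.58, 4.99 and 5.39 in KO skin, against 3.84, 4.00, 4.48 and 4.56 in WT skin (1.13 ± 0.19, SE; limma adjusted p = 0.0034). WT replicate 3, the lowest WT array for Ifi202b at 8.27, was not low for Ifi203. Ifi205 (0.87 ± 0.20), Mnda (0.86 ± 0.15) and Pydc4 (0.70 ± 0.14) also passed after centring, while Pyhin1 (0.70 ± 0.22) did not (limma adjusted p = 0.0839). Mnda carries annotation class 3 in the table, which in Affymetrix's scheme stands for mixed probes, and the other 4 carry class 1, for unique ones, and members of the family are similar in sequence.

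Of 23 other inducible GTPase genes, 9 rose (39.1%, beside 11.8% of all probe sets) and 1 fell. The guanylate-binding protein gene Gbp2 had values of 6.74, 6.86, 6.48 and 6.74 in KO skin, against 5.54, 5.87, 5.65 and 5.76 in WT skin. It rose by 0.9996 ± 0.13 (SE; limma adjusted p = 0.000971), beside its neighbours on chromosome 3, Gbp2b (0.92 ± 0.16) and Gbp3 (0.88 ± 0.16). Gbp11, on chromosome 5, fell (−0.76 ± 0.19, SE; limma adjusted p = 0.0206), while Gbp8, also on chromosome 5, rose (0.60 ± 0.13). The fall of Gbp11 missed the threshold without KO replicate 4 or WT replicate 3 (limma adjusted p = 0.056 and 0.0535). Its mean over the 8 arrays, 3.45, lay below the median over all probe sets, 4.76. The 2 listed relatives of Iigp1 on chromosome 18, F830016B08Rik (0.70 ± 0.20) and Gm4951 (0.53 ± 0.13), rose as deposited, and after centring their differences were 0.59 and 0.42 and missed the threshold (limma adjusted p = 0.0681 and 0.0528). Igtp (0.67 ± 0.16) passed after centring, and Irgm2 (0.57 ± 0.15) and Ifi47 (0.50 ± 0.13), the list gene closest to the authors' size criterion, did not.

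Of 9 further targets of interferon gamma 3 were named (33.3%, beside 16.2% of all probe sets). The chemokine genes Cxcl9 (1.66 ± 0.20, SE; limma adjusted p = 0.000806) and Cxcl10 (0.89 ± 0.27; adjusted p = 0.0411) and the checkpoint ligand gene Cd274 (0.82 ± 0.13; adjusted p = 0.00253) rose. Cxcl10 did not pass once the arrays were centred (limma adjusted p = 0.0739). Cxcl10 in KO replicate 3 was 7.67, within the WT range, while the other KO arrays read 8.77 to 8.92. The immunoproteasome genes Psmb8 (0.69 ± 0.11) and Psmb9 (0.56 ± 0.14) were the 2 named of 10 antigen processing genes (20%, beside 16.2% of all probe sets). Both passed after centring. Psmb9 missed the threshold with KO replicate 2, KO replicate 4, WT replicate 3 or WT replicate 4 left out singly (limma adjusted p = 0.0583, 0.0511, 0.0552 and 0.0506). Both genes lie on chromosome 17, as does the targeted gene Cdsn.

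**Figure D3:**
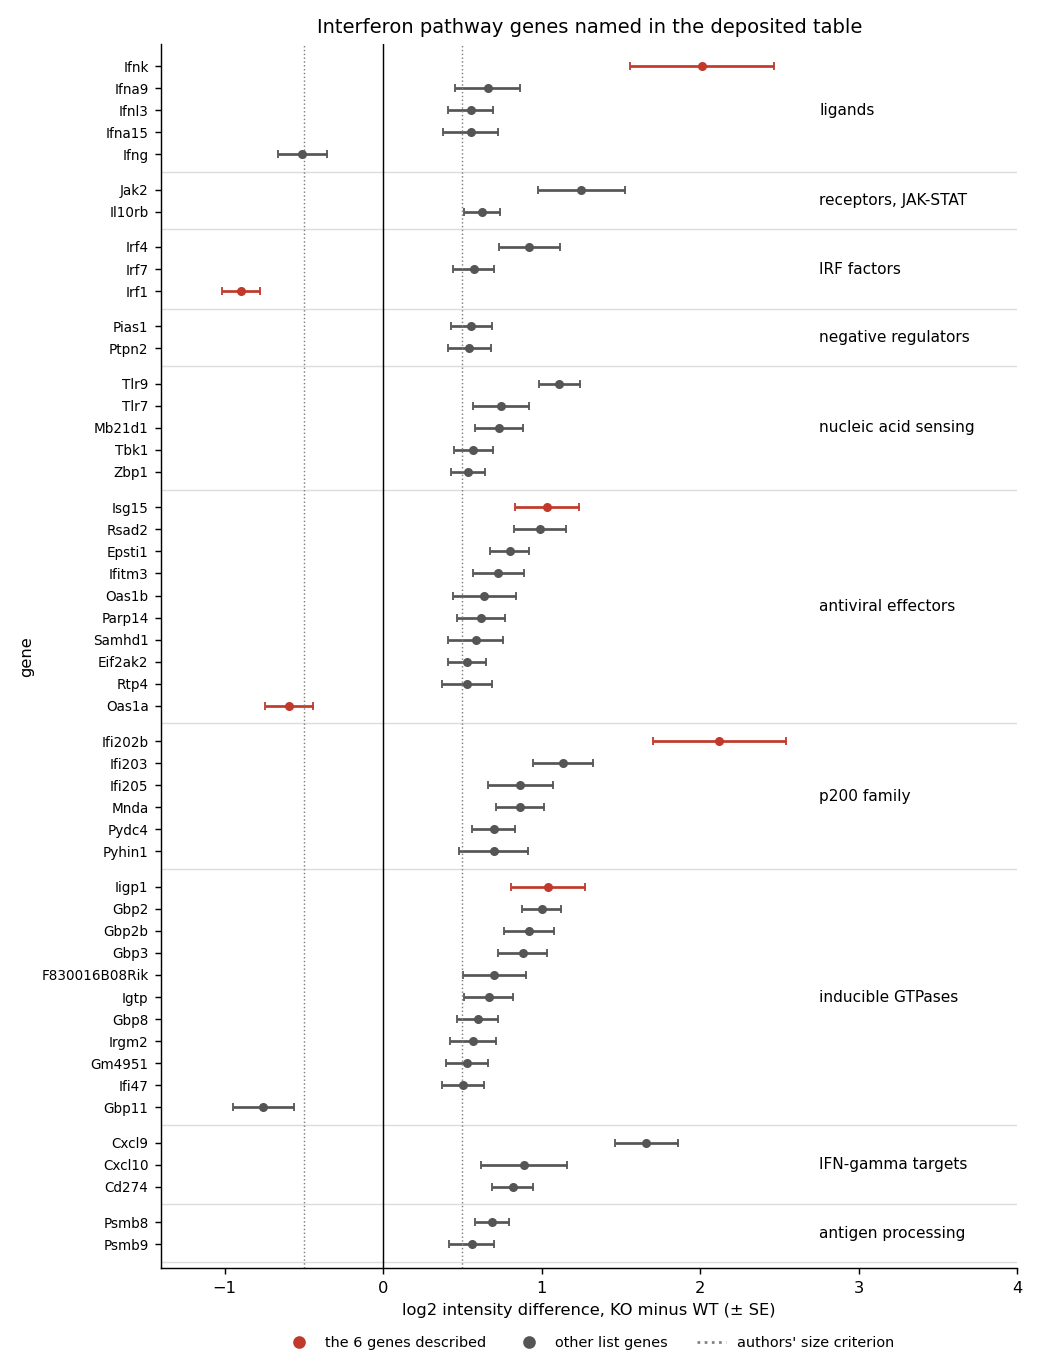
Log2 intensity difference, KO minus WT, with its SE from limma for the 6 genes described (red) and 43 of the 44 other named interferon pathway genes (grey), grouped by role; dotted lines mark the authors' size criterion of 0.5. Ifi202b (2.12) and Ifnk (2.01) lie farthest to the right, most other genes lie between 0.50 and 1.66, and 4 genes, Irf1, Oas1a, Ifng and Gbp11, lie to the left of 0.

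Promoter entries were present for 27 of the 42 other list genes that were higher, and 11 of these 27 held the ISRE core, beside 3.46% of all genes with a window, among them Rsad2, Ifi203, Gbp2 and Cxcl10. The GAS core was present in 7 of the 27, beside 8.13% of all genes, among them Irgm2, Igtp and Psmb8. Of the 2 that fell, Ifng had an entry, with a GAS core and no ISRE core. The lists were drawn up from interferon roles, so these shares describe the lists and not the rise in KO skin. List genes that were not named were not searched, so no share among them stands beside these.

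The named markers of immune cells moved in the same direction as the 4 higher genes, and the keratinocyte markers Flg and Lor in the opposite one. The rest of the keratinocyte list, Krt5, Krt14, Krt1, Krt10, Ivl and Trp63, was not named, so a general fall of keratinocyte markers is not shown. All named genes met the authors' criteria, as 11.8% of probe sets did on the higher side, and 74.0% of them were higher. Of 11 macrophage, dendritic and Langerhans cell markers 8 were named, and all 8 rose as deposited, 6 of them passing after centring. Their mean log2 level was 6.46 to 6.74 in KO skin and 5.72 to 6.08 in WT skin, with Cd74 (1.06 ± 0.16, SE) and H2-Ab1 (0.82 ± 0.17) the largest. Of 13 T and NK cell markers 6 were named and all 6 rose as deposited, 5 of them passing after centring, with mean levels of 5.15 to 5.31 in KO skin and 4.36 to 4.51 in WT skin and with Tcrg-V5 (1.21 ± 0.16) and Ncr1 (0.94 ± 0.12) in front. The 3 named of 10 neutrophil markers had mean levels of 4.98 to 6.27 in KO skin and 3.96 to 4.57 in WT skin, led by S100a8 (1.24 ± 0.37) and S100a9 (1.19 ± 0.27). All 3 rose as deposited and 2 passed after centring, where S100a8 had a difference of 1.13 (limma adjusted p = 0.0616). The third was Trem1, while Ly6g, Mpo, Elane, Ngp, Camp, Ltf and Csf3r were not named. Which cells of the skin the RNA of the 3 came from was not tested. Of the 6 plasmacytoid dendritic cell markers and the 6 fibroblast markers 0 were named. KO replicate 1, highest for Ifnk, had the lowest KO level of macrophage, dendritic and Langerhans cell markers (6.46), the second highest of neutrophil markers (5.50) and the second lowest of T and NK cell markers (5.24). Among the immune markers, Emr1, H2-Aa, H2-Ab1 and Trem1 lie on chromosome 17, as does the targeted gene Cdsn. Whether the markers rose with the number of cells or with RNA per cell was not tested. The part of these cells in the levels of the interferon genes was not tested either.

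The 6 differences kept their direction in each alternative that gave a value. Across these alternatives the difference was 1.56 to 2.33 for Ifnk, 1.71 to 2.47 for Ifi202b, 0.89 to 1.30 for Iigp1 and 0.85 to 1.15 for Isg15. It was −1.03 to −0.83 for the probe set named Irf1 and −0.77 to −0.49 for Oas1a. Centring each array on its median moved them by about 0.11, to 1.90 for Ifnk, 2.01 for Ifi202b, 0.93 for Iigp1, 0.92 for Isg15, −1.01 for Irf1 and −0.70 for Oas1a.

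**Figure D4:**
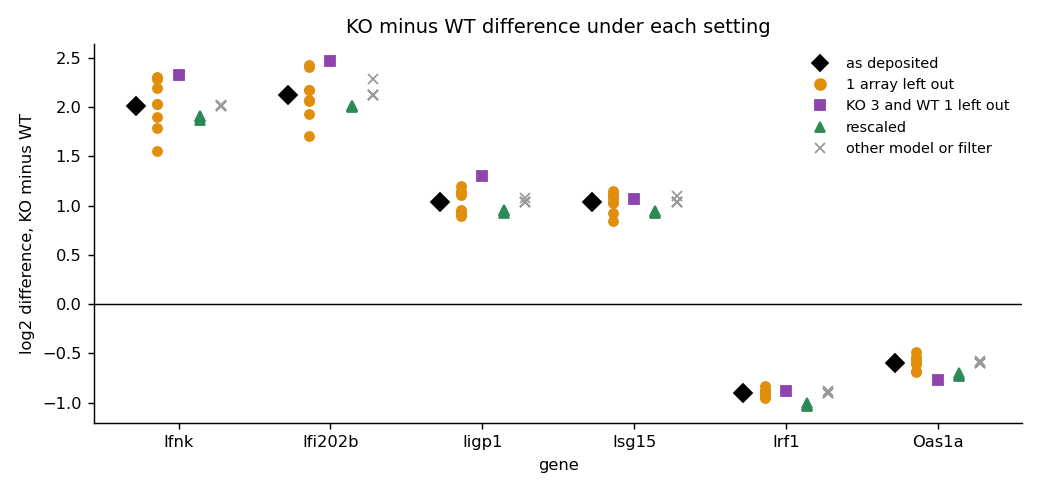
Log2 difference, KO minus WT, of each of the 6 genes as deposited (black), with 1 array left out (orange), with KO replicate 3 and WT replicate 1 left out (purple), after rescaling of the arrays (green) and under another model or filter (grey crosses). No point crosses 0, and Ifnk (1.56 to 2.33) and Ifi202b (1.71 to 2.47) spread most.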

How the data were processed

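RNA was read on the Affymetrix Gene Mouse 2.0 ST array, per the file headers, and the authors deposited log2 intensities per probe set and array; the submitters' processing notes name RMA, with no version or role. Genome build and background correction: not given in the sources used here. The authors' deposited table gives, per the file headers, mean log2 values, the fold change as a ratio (KO over WT), p-values, and an annotation class score and probe count as deposited. Depth does not apply; the 8 arrays limit the precision. Values were used as deposited in limma 3.58.1 under R 4.3.3 (lmFit with genotype alone, then eBayes), KO minus WT, the p-values being Benjamini-Hochberg adjusted across the 33793 probe sets; the fit was tested on simulated data. Embryos were separate individuals; litter and sex were not used. Gene names came only from the authors' table (299 of its 5460 probe sets have none); a gene with several probe sets was read by the one with the highest mean. The 6 genes and the lists were chosen with earlier results of these data known. Genes named were the 6, every named list gene past the threshold (except 1 that is counted but not reported here), the 3 nearest in profile to each, Cdsn, and for marker lists the 2 largest changes. Alternatives were 3 rescalings, a filter on low probe sets, 3 other variance or weight models, a replicate block and arrays left out.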

Additional observations from a re-analysis of the deposited data

Results flagged for a closer look

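A value was marked where the gap between the lowest or highest of 4 arrays and the nearest of the others, as a share of the group's range, exceeded Dixon's 95% critical value. Of 100 groups of the genes named here 11 were marked, where chance marks about 1 in 20 (5 of 100). Among the 6 genes, Isg15 in WT replicate 3 was the lowest at 4.28 (others 4.96 to 5.06), and the probe set named Irf1 in WT replicate 1 was the lowest at 3.93 (others 4.11 to 4.14). WT replicate 1 was also lowest for Tlr7 at 2.72 (others 3.47 to 3.53), Ifi205 at 5.29 (6.04 to 6.16) and Gbp2b at 2.51 (2.94 to 3.01). WT replicate 4 was highest for Pias1 at 9.19 (8.78 to 8.82) and Ifitm3 at 10.56 (9.97 to 10.06). KO replicate 3 was lowest for Cxcl10 at 7.67 (8.77 to 8.92) and Ptpn2 at 8.33 (8.45 to 8.46), and highest for Pydc4 at 3.48 (3.13 to 3.17). Pydc4 was lowest in WT replicate 2 at 2.25 (2.59 to 2.65).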

How the results depend on the processing

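The 6 differences moved by less than the spread between replicates in each alternative run, except the probe set named Irf1 after cyclic loess (−1.03). Leaving out 1 array gave 1.56 to 2.31 for Ifnk and 1.71 to 2.42 for Ifi202b. Ifnk, Irf1 and Oas1a had no value with low probe sets left out. Probe sets higher in KO numbered 5138 as deposited, 2965 after centring, 3229 after quantile normalization, 3227 after cyclic loess and 2420 with low probe sets left out; those lower numbered 2056, 3075, 3169, 3165 and 879, and 1335 to 1820 with 1 array left out (1358 without both KO replicate 3 and WT replicate 1). Of the 42 higher list genes 27 passed after centring, 27 without eBayes moderation and 29 to 37 with 1 array left out. With low probe sets left out 30 of the 42 passed, and the others had been removed. The 2 lower ones, Ifng and Gbp11, numbered 0 to 2 with 1 array left out, 0 without moderation and 0 without KO replicate 3 and WT replicate 1 (limma; 2 and 2 at an unadjusted p under 0.05), and 0 with low probe sets left out, where both had been removed. Of the 44 genes 21 passed in each alternative that gave a value. Whether the replicate numbers pair the arrays could not be settled. Correlations of same-numbered deviations were −0.03 to 0.23, the highest for replicate 3, and those of different-numbered ones −0.21 to 0.19. With the replicate block 39 list genes were higher and 1 lower, and the 6 differences were as reported. No gene of the lists had several probe sets, so averaging them was not run.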
